A study of Mus musculus with 6 samples.

Results

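The genes examined here belong to the integrated stress response and to the synthesis of serine, and they were followed in leg muscle of mouse fetuses. The list holds 10 genes of the 56262 in the count table, fixed by name and looked up by Ensembl identifier, with symbols from GENCODE release M21. They are the transcription factor genes *Atf4* and *Ddit3*, the feedback and stress effectors *Trib3* and *Chac1*, the amino acid enzymes *Asns*, *Phgdh*, *Psat1* and *Shmt2*, and the secreted factors *Fgf21* and *Gdf15*. RNA-seq counts came from 3 WT and 3 *SYISL* KO samples, all of leg muscle at embryonic day 18.5, with no other treatment. *SYISL* is transcribed from an intron of *Synpo2* and codes for no protein. Fetuses came from matings within a genotype, so effects of the mother's genotype and of the fetus's own genotype cannot be told apart. The labels do not say whether samples were single fetuses, pools or littermates, and p-values measure only the spread between these samples. Counts summed to between 82054811 and 102233181 in each sample. The WT mice came from an animal centre and the KO mice from a line made earlier, so any difference between these sources cannot be told apart from genotype. The level of *SYISL* itself was not analysed here, so its loss was not checked.

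The integrated stress response begins when kinases phosphorylate the translation factor eIF2, which slows most protein synthesis but favors translation of the *Atf4* mRNA. The ATF4 protein then binds, often with C/EBP partners, near genes for amino acid synthesis, amino acid uptake, tRNA charging and redox balance, many of which serve to restore amino acid supply. Because ATF4 is set largely at translation, the *Atf4* mRNA level is not a measure of the ATF4 protein, which was not measured here. Serine is built from a glycolytic intermediate by PHGDH, PSAT1 and PSPH, and its conversion to glycine feeds the folate pool of one-carbon units used for nucleotides. In muscle, *Fgf21* and *Gdf15* are known as secreted products of the response under mitochondrial or amino acid stress.

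Sequences before the gene starts are shown because ATF4 with a C/EBP partner is known to bind a composite element, searched here as TGATGNAA on both strands. RefSeq windows on GRCm38.p6, the assembly of mm10, were found for each of the 10 genes, and the 250 bases before each start were read. The element was found before *Chac1*, *Fgf21* and *Asns*, 3 of the 10 genes. Of all 27025 genes with such a window, 3.91% held it. *Trib3* and *Psat1* held no such match but shared a run of letters, noticed when the windows were read, of which TGGTGCAATCCC is the longest in common. It was present, on either strand, in 4 of the 32851 windows of all genes, those of *Trib3* and *Psat1* among them. The run was taken from these windows, so its presence there was given in advance and the number is a description only. Capitals mark the matched letters, on either strand, and each sequence runs 5′ to 3′ along the strand of its gene.
*Chac1*, chr2:119350992-119351241, plus strand: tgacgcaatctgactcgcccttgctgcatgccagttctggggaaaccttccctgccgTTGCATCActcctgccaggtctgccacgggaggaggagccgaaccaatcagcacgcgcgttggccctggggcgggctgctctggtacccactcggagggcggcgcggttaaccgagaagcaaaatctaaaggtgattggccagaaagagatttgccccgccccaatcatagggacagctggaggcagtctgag
*Fgf21*, chr7:45615491-45615740, minus strand: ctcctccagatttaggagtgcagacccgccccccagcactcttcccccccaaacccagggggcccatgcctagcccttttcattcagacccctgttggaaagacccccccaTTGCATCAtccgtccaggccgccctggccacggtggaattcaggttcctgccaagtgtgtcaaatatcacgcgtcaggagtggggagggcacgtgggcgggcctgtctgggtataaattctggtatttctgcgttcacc
*Asns*, chr6:7693225-7693459, minus strand: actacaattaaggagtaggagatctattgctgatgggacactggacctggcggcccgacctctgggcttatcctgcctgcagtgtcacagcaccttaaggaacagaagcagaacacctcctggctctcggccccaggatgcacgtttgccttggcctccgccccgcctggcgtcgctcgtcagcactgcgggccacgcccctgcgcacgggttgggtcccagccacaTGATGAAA
*Trib3*, chr2:152344061-152344310, minus strand: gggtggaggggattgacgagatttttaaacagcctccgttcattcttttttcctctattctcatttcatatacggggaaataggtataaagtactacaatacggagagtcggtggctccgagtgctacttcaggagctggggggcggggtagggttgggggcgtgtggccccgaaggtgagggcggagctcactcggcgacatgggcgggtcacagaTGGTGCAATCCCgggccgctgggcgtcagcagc
*Psat1*, chr19:15925060-15925309, minus strand: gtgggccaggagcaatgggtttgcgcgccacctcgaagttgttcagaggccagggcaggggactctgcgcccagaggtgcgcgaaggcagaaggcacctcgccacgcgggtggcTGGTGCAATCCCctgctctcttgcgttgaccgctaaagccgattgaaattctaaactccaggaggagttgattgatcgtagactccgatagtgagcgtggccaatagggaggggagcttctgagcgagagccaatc
The match lies 193 to 186 bases before the RefSeq start of *Chac1*, 139 to 132 bases before that of *Fgf21* and 23 to 16 bases before that of *Asns*, where the stretch ends at the match. GENCODE M21 starts *Asns* further upstream, and all 8 bases of its match lie in an annotated exon, so by that annotation the match is inside the gene. Those of *Trib3* and *Psat1* lie 33 to 22 and 136 to 125 bases before the RefSeq start of the window shown. A further RefSeq window of *Psat1*, at chr19:15924623-15924872, held no match to either run. Besides that of *Asns*, none of these matches has a base in a GENCODE exon, though the *Psat1* stretch lies within the longer GENCODE gene. No match to either run was found in the windows of *Atf4*, *Ddit3*, *Phgdh*, *Shmt2* and *Gdf15*. These matches describe letters only, and binding was not measured.

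Most of these genes were lower in KO. A call required both a Benjamini-Hochberg adjusted p under 0.05, taken over the 22071 genes tested by edgeR (quasi-likelihood F-test), and a change of more than 1.5-fold. All 10 passed the filter on low counts, *Fgf21* through its WT samples alone. *Trib3*, *Chac1*, *Phgdh* and *Psat1* were called lower, 4 of 10, beside 8.39% of all genes tested. *Fgf21* was called lower too, but having passed through the group where it is high it is not read against that share, and with at least 10 counts required in every sample it was not tested. None of the 10 was called higher, beside 8.31% of all genes, and 0 were higher at an unadjusted p under 0.05 or by DESeq2 or limma-voom. On the adjusted p alone, 9 of 10 were lower and 0 higher. With *Fgf21* again set aside, all of the other genes but *Gdf15* were lower, against backgrounds of 23.1% lower and 21.9% higher. For those same genes without *Fgf21*, each KO value lay below each WT value, which held for 28.5% of all genes tested. The median log2 fold change (KO over WT) was -0.88 over the 10 genes, *Fgf21* included. Without *Fgf21* the middle value was that of *Asns* (-0.42), beside a median of -0.0041 over all genes tested. The list was put together with results of these data known, so these shares are a description.

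**Figure D1:**
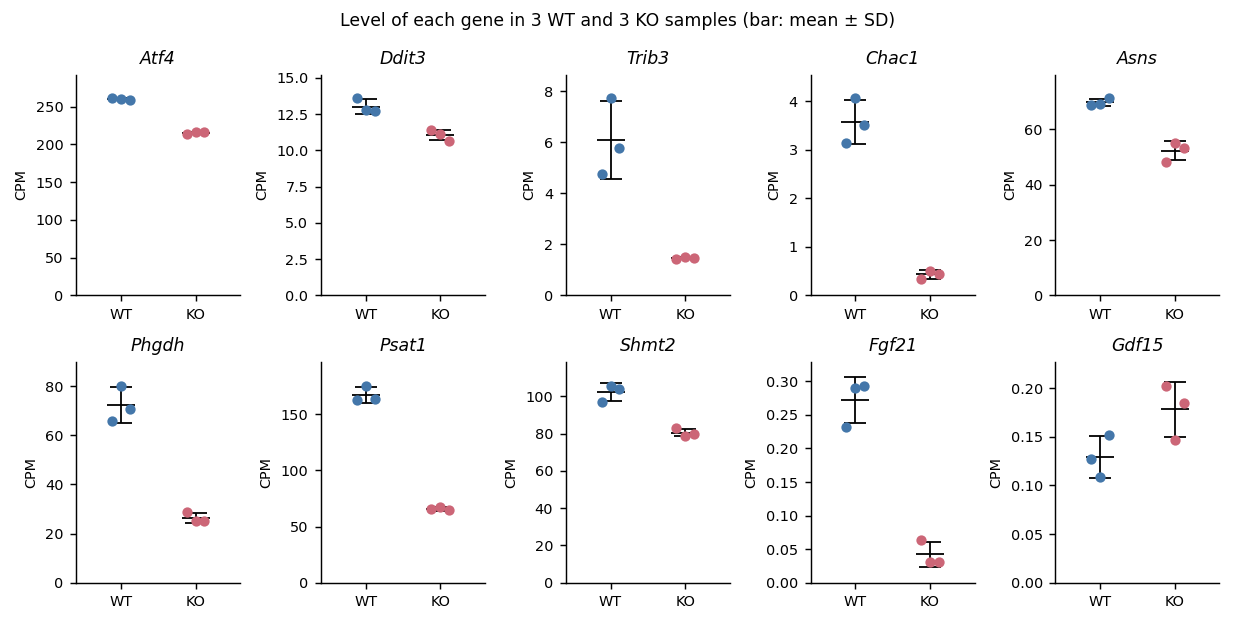
Level of each of the 10 genes as CPM (counts scaled by library size with TMM factors, axis from 0) in 3 WT samples (blue) and 3 KO samples (red), with the mean and SD as bars. The KO points lie below the WT points in every panel except *Gdf15*, where the groups overlap, and the gap is widest in proportion for *Chac1* and *Fgf21*.

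The mRNA levels of *Atf4* and *Ddit3* changed little. *Atf4* (ENSMUSG00000042406.8, chromosome 15, 80255184 to 80257541 in mm10) encodes the bZIP transcription factor that drives the response. Its level was 261, 260 and 259 CPM in the WT samples and 214, 216 and 216 CPM in the KO samples. The samples of each genotype lay close together and the genotypes did not overlap. It changed by -0.27 on the log2 scale, KO over WT (standard error, SE, 0.037, 95% interval -0.36 to -0.19, edgeR adjusted p = 3.07e-04), so KO stood at 82.8% of the WT level, inside the 1.5-fold limit for a call. *Ddit3* (ENSMUSG00000025408.15, chromosome 10, 127290774 to 127296288) encodes CHOP, a bZIP factor linked to cell death under lasting stress. It stood at 13.6, 12.8 and 12.7 CPM in WT and 11.4, 11.1 and 10.7 CPM in KO. All KO values were below the WT values by a small margin. On the log2 scale it changed by -0.24 (SE 0.060, edgeR adjusted p = 0.0102), and the adjusted p rose to 0.0557 with upper-quartile factors and to 0.0581 without KO replicate 3. *Ddit3* shares 68 exon bases with *Mars* on the opposite strand, and since the strand setting of the counting is not given, reads there cannot be assigned with certainty. *Mars*, a tRNA synthetase gene named here for this overlap, had a log2 fold change of -0.31.

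*Trib3* and *Chac1*, known targets of ATF4 and CHOP, showed much larger falls. *Trib3* (ENSMUSG00000032715.9, chromosome 2, 152337422 to 152344032) encodes a pseudokinase that restrains ATF4 and AKT signaling. Its counts were 449, 638 and 610 (WT) and 134, 142 and 142 (KO), or 4.74, 7.72 and 5.78 CPM against 1.43, 1.49 and 1.46 CPM. WT replicate 2 was highest, the WT samples were spread (CV 24.9%), and the KO samples were nearly level (CV 2.07%). *Trib3* fell by 2.05 on the log2 scale (SE 0.17, edgeR adjusted p = 9.73e-06), to 24.1% of WT. *Chac1* (ENSMUSG00000027313.3, chromosome 2, 119351229 to 119354381) encodes an enzyme that breaks down glutathione. Its counts were 298, 336 and 371 (WT) and 32, 49 and 43 (KO), or 3.15, 4.07 and 3.51 CPM against 0.341, 0.514 and 0.442 CPM. The lowest WT value was several times the highest KO value. This was the largest fall of the 10, at -3.04 on the log2 scale (SE 0.16, 95% interval -3.41 to -2.67, edgeR adjusted p = 6.56e-07), so the WT level was 8.23 times the KO level.

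**Figure D2:**
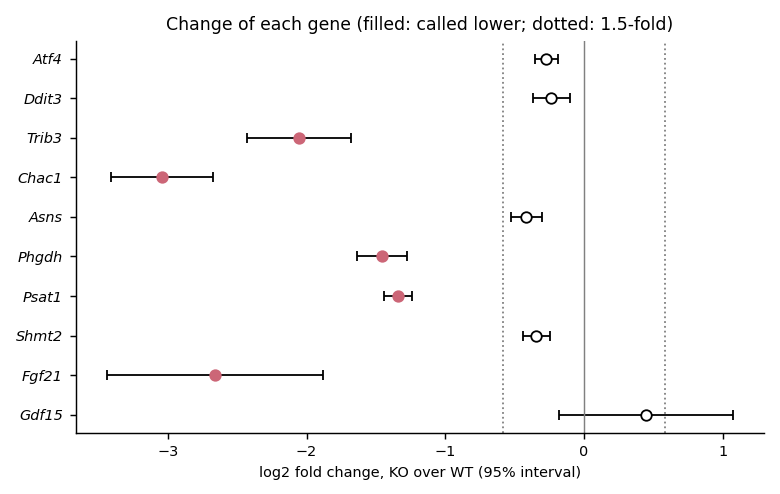
Log2 fold change (KO over WT) of each gene with its 95% interval from the edgeR fit. Filled points are genes called lower, and the dotted lines mark a 1.5-fold change. The intervals of the 5 called genes lie wholly beyond the lower line, while those of *Atf4*, *Ddit3*, *Asns* and *Shmt2* lie between that line and 0, and that of *Gdf15* includes 0.

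Among the amino acid enzymes, the genes of serine synthesis fell most. *Phgdh* (ENSMUSG00000053398.11, chromosome 3, 98313170 to 98339990) encodes the first enzyme of the route. It stood at 65.9, 80.2 and 70.7 CPM in WT and 28.8, 25.1 and 25.0 CPM in KO. KO replicate 1 was the highest KO sample and still lay below the lowest WT sample by more than the range within either genotype. On the log2 scale *Phgdh* changed by -1.46 (SE 0.080, edgeR adjusted p = 7.49e-07), or 36.4% of WT. *Psat1* (ENSMUSG00000024640.9, chromosome 19, 15904678 to 15947337), the transaminase of the next step, stood at 163, 175 and 163 CPM in WT and 65.4, 67.8 and 64.5 CPM in KO. Both genotypes were tight, and the difference had the smallest adjusted p of the 10 genes. *Psat1* fell by 1.34 on the log2 scale (SE 0.044, edgeR adjusted p = 5.93e-08), or to 39.5% of WT. *Asns* (ENSMUSG00000029752.12, chromosome 6, 7675169 to 7693254), which makes asparagine from aspartate, stood at 68.9, 69.1 and 71.3 CPM in WT and 48.4, 55.1 and 53.4 CPM in KO. Its KO samples varied more than its WT samples, without overlap. On the log2 scale *Asns* changed by -0.42 (SE 0.050, edgeR adjusted p = 1.35e-04), under the 1.5-fold limit. *Shmt2* (ENSMUSG00000025403.5, chromosome 10, 127517123 to 127522444), the mitochondrial enzyme that turns serine into glycine, stood at 96.7, 106 and 104 CPM in WT and 82.7, 78.9 and 79.7 CPM in KO. It was lower in each KO sample but also stayed inside the limit, at -0.34 on the log2 scale (SE 0.044, edgeR adjusted p = 1.81e-04). It shares 32 exon bases with *Ndufa4l2* on the opposite strand.

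The secreted factors were near the limit of detection. *Fgf21* (ENSMUSG00000030827.5, chromosome 7, 45613886 to 45615490), a hormone of nutrient stress, was counted 22, 24 and 31 times in WT but 6, 3 and 3 times in KO. All KO counts were below all WT counts, and those of KO replicates 2 and 3 equalled the 3 counts that an observed 0 still allows. Over the summed counts, 77 in WT and 12 in KO, the WT rate was 6.50 times the KO rate, with an exact 95% counting interval of 3.51 to 13.1 that covers counting error only. On the log2 scale the fitted change was -2.66 (SE 0.35, edgeR adjusted p = 2.10e-04), for a gene that passed the filter through its WT samples alone. *Gdf15* (ENSMUSG00000038508.7, chromosome 8, 70629393 to 70632456), a stress cytokine, was counted 12, 9 and 16 times in WT against 19, 14 and 18 times in KO. As CPM, the lowest KO value (0.147) lay below the highest WT value (0.152), so the groups overlapped. Its log2 fold change was 0.45 with a 95% interval from -0.18 to 1.07 (edgeR adjusted p = 0.236), which leaves both no change and a doubling possible at this depth.

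Levels were compared between genes per length, as CPM per kilobase of merged exons of GENCODE M21. In WT, *Atf4* was highest at 110 ± 0.569, followed by *Psat1* at 39.3 ± 1.71, *Shmt2* at 32.9 ± 1.54, *Phgdh* at 29.1 ± 2.94 and *Asns* at 25.5 ± 0.487 (SD, n = 3). The levels of *Shmt2* and *Phgdh* overlapped between samples. Lower down stood *Ddit3* at 7.61 ± 0.292, *Trib3* at 2.86 ± 0.711, *Chac1* at 2.18 ± 0.282, *Fgf21* at 0.286 ± 0.0363 and *Gdf15* at 0.0697 ± 0.0116, where *Trib3* and *Chac1* overlapped. In KO the order of the enzymes differed, with *Shmt2* at 25.9 ± 0.650, *Asns* at 19.1 ± 1.28, *Psat1* at 15.5 ± 0.399 and *Phgdh* at 10.6 ± 0.871. *Psat1* thus went from above *Shmt2* and *Asns* to below both, and *Phgdh* from above *Asns* to below it. The merged exons of *Psat1* span 4254 bases, and its annotated gene begins upstream of the RefSeq start used for the window above.

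The library makeup differed between the genotypes, and these values stand beside the results above. Over all genes tested, 8.39% were called lower and 8.31% higher, and 23.1% were lower on the adjusted p alone. The 15 keratinocyte markers were all called lower in KO, with a summed level of 17341 to 25952 CPM in WT and 742 to 852 CPM in KO. Of the 10 skeletal muscle markers, none was at 0, 7 were called higher, and the sum went from 18768 to 20934 CPM in WT to 39187 to 47228 CPM in KO. The 7 adipocyte markers were all called higher (105 to 138 CPM against 345 to 409 CPM), as were 4 of 8 macrophage markers (263 to 279 against 388 to 426 CPM). Of 8 cartilage markers 5 were called lower (396 to 511 against 340 to 345 CPM), and of 9 proliferation markers, 7 were lower on the adjusted p with none past the fold limit in edgeR, DESeq2 or limma-voom (1045 to 1080 against 894 to 979 CPM). On the adjusted p alone, 1 marker went the other way in each of the muscle, macrophage and cartilage lists (log2 fold changes -0.22, -0.27 and 0.41). The 7 liver markers summed to 1.34 to 15.8 CPM in WT and 2.90 to 6.85 CPM in KO, and of the 5 tested 0 were called or had an unadjusted edgeR p under 0.05, nor were any called by DESeq2 or limma-voom. Y-linked counts were nearly absent from WT replicate 2 and KO replicate 1 (sums of 0.0242 and 0.0747 CPM) and stood at 64.2 to 166 CPM in the other 4 samples, while the labels give no sex.

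Within WT, keratinocyte markers were highest in replicate 2 and lowest in replicate 1, by 1.5 times in sum and in this order for 14 of 15 markers. *Trib3*, *Chac1*, *Phgdh*, *Psat1* and *Shmt2* had the same order, 5 of the 10 genes, an order that 25.5% of all genes tested and 57.0% of genes called lower also had. The Y-linked sums ran in the reverse order, at 166, 69.8 and 0.0242 CPM in WT replicates 1, 3 and 2. Keratinocyte and Y-linked content therefore cannot be told apart by this order. From WT replicate 1 to replicate 2, the ratio was 1.63 for *Trib3*, 1.29 for *Chac1*, 1.22 for *Phgdh*, 1.08 for *Psat1* and 0.994 for *Atf4*. Without WT replicate 2 the same number of genes, 5, was called lower, *Fgf21* among them. That refit cannot address the keratinocyte content. WT replicates 1 and 3 still had keratinocyte sums of 17341 and 19367 CPM, against 742 to 852 CPM in KO. The part of keratinocytes and other cell types in these falls was not tested. In bulk tissue, fewer cells of a type and less RNA per cell cannot be told apart.

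**Figure D3:**
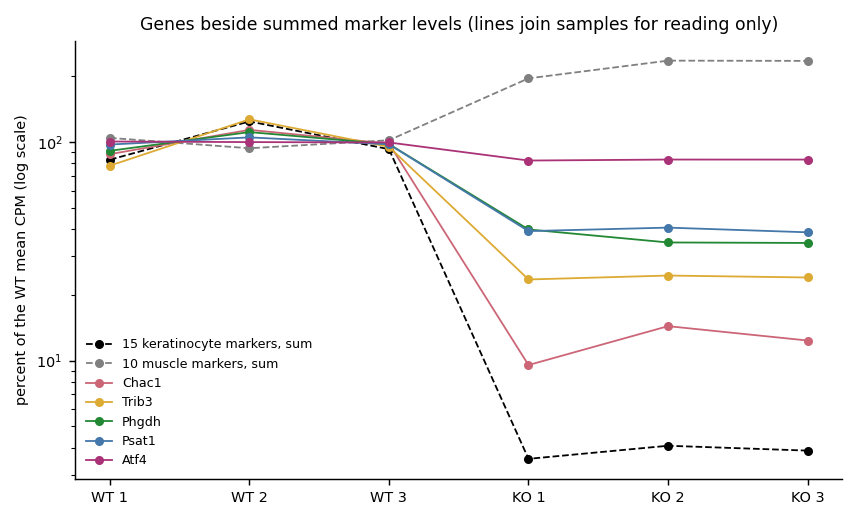
Levels in each sample as a percentage of the WT mean CPM, on a log axis, for *Chac1*, *Trib3*, *Phgdh*, *Psat1* and *Atf4* and for the summed keratinocyte and muscle markers (dashed). *Atf4* stays near 80% of WT in the KO samples, the 4 other genes lie between the keratinocyte sum and *Atf4*, and the muscle sum lies above 100%.

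Further genes of the response were described from lists by role, 119 genes of which 118 were tested. Of these, 14 (11.9%) were called lower and 6 (5.08%) higher, shares near the 8.39% and 8.31% of all genes tested. On the adjusted p alone, 68 (57.6%) were lower and 16 (13.6%) higher, beside 23.1% and 21.9% of all genes. The median log2 fold change was -0.20. For these genes too, the part of keratinocytes and other cell types in the changes was not tested. Upstream, 1 of 14 genes for eIF2 kinases, eIF2, its exchange factor eIF2B and its phosphatase was called, while 6 were lower and 1 higher on the adjusted p alone. *Eif2ak2*, the kinase PKR that senses double-stranded RNA, rose from 12.9 ± 0.857 to 25.7 ± 0.836 CPM (SD, n = 3), or by 0.99 on the log2 scale (SE 0.062, edgeR adjusted p = 1.83e-06). The 3 other kinase genes, named after their values were seen, were *Eif2ak1* (-0.0058), *Eif2ak3* (-0.026) and *Eif2ak4* (-0.019). Each had a 95% interval within -0.14 and 0.085 on the log2 scale. *Eif2s1*, the eIF2 subunit that the kinases phosphorylate and also named afterwards, had a log2 fold change of -0.38 (edgeR adjusted p = 4.53e-05), under the limit for a call.

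Among 10 other transcription factors and effectors, 3 were called lower and 1 higher, and 6 were lower and 3 higher on the adjusted p alone. Over all genes tested, 8.39% were called lower and 8.31% higher, and 23.1% and 21.9% were so on the adjusted p alone. *Sesn2*, a leucine sensor induced by ATF4, fell from 11.5 ± 1.39 to 4.71 ± 0.0369 CPM (-1.29 on the log2 scale). *Cebpb*, a C/EBP partner, fell from 13.0 ± 3.66 to 7.17 ± 0.767 CPM (-0.85), with its highest value in WT replicate 2. The third was *Nupr1* (-0.61), a stress-induced chromatin protein named after its values were seen, which lost its call with upper-quartile factors (-0.55). *Atf3*, a stress-induced bZIP gene, went the other way, from 6.84 ± 0.726 to 10.6 ± 0.568 CPM (0.63), and lost its call with library size alone (0.56) and without WT replicate 2 (0.55).

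Of 9 amino acid transporters, 2 were called lower, beside 8.39% of all genes tested, and 8 had a log2 fold change below 0. On the adjusted p alone 7 were lower and 1 higher, beside 23.1% and 21.9% of all genes tested. *Slc7a11*, the cystine importer that supplies glutathione synthesis, stood at 10.2, 14.0 and 10.1 CPM in WT and 0.373, 0.357 and 0.483 CPM in KO. This was the largest change in the lists by role, at -4.82 on the log2 scale (SE 0.18, edgeR adjusted p = 1.05e-07). *Slc7a11* was 28.2 times as high in WT as in KO, beside 26.1 times for the summed keratinocyte markers. Both were highest in WT replicate 2, and the part of keratinocytes in this fall was not tested. *Slc7a5*, the transporter of large neutral amino acids, fell from 91.5 ± 6.54 to 55.2 ± 4.91 CPM (-0.73). All 20 genes for cytosolic aminoacyl-tRNA synthetases had a log2 fold change below 0, as had 19 of 20 with upper-quartile factors. With TMM factors the values lay between -0.90 and -0.062, with a median of -0.36. Of the 22071 genes tested, 11147 had a log2 fold change below 0. On the adjusted p alone 17 of the synthetase genes were lower, and 1 was called. That was *Cars*, which charges tRNA with cysteine and fell from 73.3 ± 5.19 to 39.3 ± 1.15 CPM (-0.90).

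Of 18 other serine, glycine and one-carbon genes, 5 were called lower and none higher by edgeR, DESeq2 or limma-voom, while 3 were higher at an unadjusted edgeR p under 0.05. On the adjusted p alone 9 were lower and 2 higher, beside 23.1% and 21.9% of all genes tested. The shares of all genes called were 8.39% lower and 8.31% higher. *Gldc*, the decarboxylase of the glycine cleavage system, stood at 4.54, 7.08 and 5.26 CPM in WT and 0.875, 0.902 and 0.822 CPM in KO. It changed by -2.69 on the log2 scale (SE 0.17, edgeR adjusted p = 1.85e-06). The log2 fold changes of the other genes of that system, named after their values were seen, were 0.17 for *Amt*, 0.032 for *Gcsh* and 0.45 for *Dld*, whose protein is shared with other dehydrogenases. *Cth*, the enzyme that releases cysteine in transsulfuration, fell from 4.35 ± 0.0679 to 2.10 ± 0.208 CPM (-1.05). The remaining 3, named after their values were seen, were *Cbs* (-1.05), the enzyme before *Cth*, *Mthfd2* (-1.01), a mitochondrial folate enzyme, and *Psph* (-0.89), the last step of serine synthesis. All steps of serine synthesis were thus called lower. The cytosolic *Shmt1*, also named afterwards, had a log2 fold change of -0.0094, with a 95% interval from -0.12 to 0.098.

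**Figure D4:**
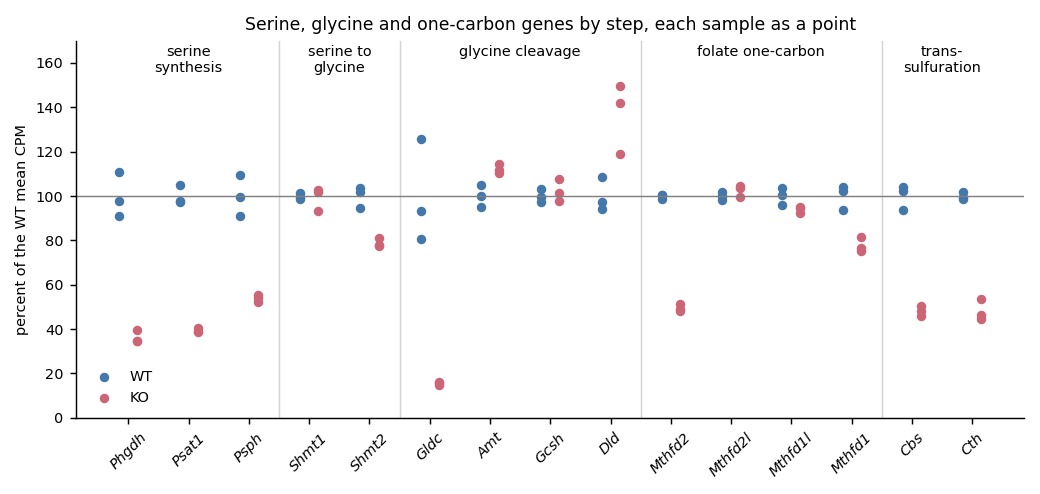
Level of each serine, glycine and one-carbon gene as a percentage of its WT mean CPM, with each WT (blue) and KO (red) sample as a point and genes ordered by step. The KO points of *Phgdh*, *Psat1*, *Psph*, *Gldc*, *Mthfd2*, *Cbs* and *Cth* lie well below 100%, while those of *Shmt1*, *Gcsh* and *Mthfd2l* lie around it and those of *Dld* above it.

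Among 10 proline, aspartate and glutamine genes, 3 were called higher and 1 lower, and on the adjusted p alone 3 were higher and 2 lower. For all genes tested the shares were 8.31% and 8.39% called, and 21.9% and 23.1% on the adjusted p alone. *Ass1*, which joins aspartate to citrulline, fell from 19.2 ± 2.71 to 6.80 ± 0.614 CPM (-1.50). The aspartate transaminases rose, with *Got1* going from 36.6 ± 1.75 to 59.1 ± 7.10 CPM (0.69) and *Got2* from 163 ± 2.61 to 259 ± 29.8 CPM (0.66). The summed muscle markers were 2.22 times as high in KO as in WT, and their part in these rises was not tested. *Glul*, glutamine synthetase and named after its values were seen, had a log2 fold change of 0.64 and lost its call with library size alone (0.57). Of 21 endoplasmic reticulum genes of the unfolded protein response, 1 was called, while 16 were lower and 1 higher on the adjusted p alone. That was *Sdf2l1*, a chaperone partner, which went from 8.45 ± 0.858 to 5.53 ± 0.467 CPM (-0.61) and lost its call without WT replicate 2 (-0.53), without KO replicate 2 (-0.57), without KO replicate 3 (-0.58) and with upper-quartile factors (-0.54). The list's log2 fold changes ran from -0.61 to 0.18 with a median of -0.20.

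**Figure D5:**
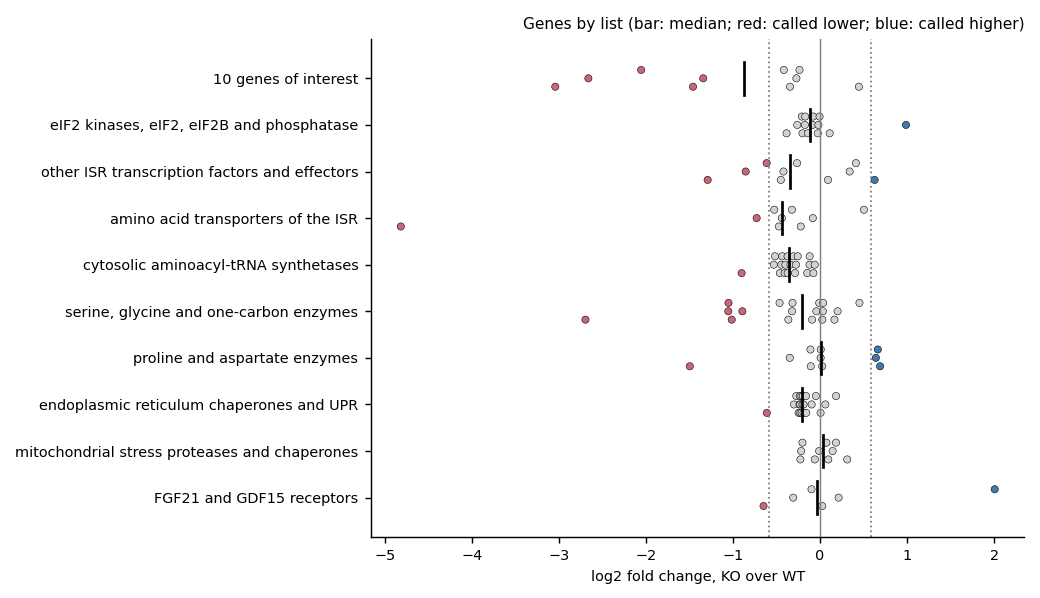
Log2 fold changes (KO over WT, horizontal axis) of the 10 genes and of the tested genes of each list, one point per gene. Red points were called lower, blue points higher and grey points neither, bars are medians and dotted lines mark a 1.5-fold change. With the TMM factors plotted, the tRNA synthetases lie together below 0 (19 of 20 with upper-quartile factors), and *Slc7a11* lies alone near -4.82.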

How the data were processed

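RNA was sequenced from leg muscle of 3 WT and 3 KO samples. According to the methods and the submitters' processing notes, the authors trimmed 150 bp paired-end reads with Trim Galore (0.6.6), mapped them to mm10 with HISAT2 (2.2.1) and counted them per gene with featureCounts (2.0.1). Values deposited by the authors are counts, not normalized. The annotation, the strand setting and the unit counted (reads or pairs) are not given in the sources used here. The table of the series and the files per sample held the same values. Of 56262 genes, 55227 were found in GENCODE M21 by Ensembl identifier without version.

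Counts were analysed in R 4.3.3 with edgeR 4.0.16 (filterByExpr, TMM, quasi-likelihood F-test on genotype), and standard errors were taken from the log2 fold change and F. CPM uses TMM-scaled totals. P-values were adjusted by Benjamini-Hochberg over 22071 genes. At 82054811 to 102233181 counts per sample, 3 counts correspond to 0.0284 to 0.0363 CPM. The biological coefficient of variation was 7.68%.

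The members and lists were chosen with earlier results of these data known. Named from each list are the 2 largest called rises and the 2 largest called falls, or the 2 most abundant genes where none was called. Named outside this rule, after their values were seen, are *Eif2ak1*, *Eif2ak3*, *Eif2ak4*, *Eif2s1*, *Nupr1*, *Mars*, *Psph*, *Mthfd2*, *Mthfd2l*, *Shmt1*, *Amt*, *Gcsh*, *Dld*, *Cbs*, *Glul* and *Gfral*. Alternatives were RLE factors, upper-quartile factors, library size, no filter, at least 10 counts in every sample, DESeq2 1.42.0 (the tool of the study), limma-voom (limma 3.58.1), a replicate block, the Y-linked share as a covariate, other fold thresholds and leaving out each sample. The fits were tested on simulated counts. Promoter windows are from RefSeq (GRCm38.p6).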

Additional observations from a re-analysis of the deposited data

How the results depend on the processing

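Each of the 10 genes was refitted under up to 15 alternatives, 148 refits in all, and in each refit it kept its direction and its side of the threshold for a call. *Fgf21* and *Gdf15* gave no value with at least 10 counts in every sample, which left 4 genes called lower. In the other alternatives with the 1.5-fold threshold, 5 were called lower and 0 higher, *Fgf21* among the 5. With *Fgf21* set aside, *Trib3*, *Chac1*, *Phgdh* and *Psat1* were called lower in each of them. The log2 fold change ranged from -3.18 to -2.89 for *Chac1*, from -2.21 to -1.85 for *Trib3*, from -3.07 to -2.47 for *Fgf21*, from -1.53 to -1.38 for *Phgdh*, from -1.41 to -1.27 for *Psat1* and from -0.34 to -0.20 for *Atf4*. Without a fold change threshold, 9 of the 10 genes were lower, *Fgf21* included. The calls over all genes then went from 1852 lower and 1835 higher to 5098 and 4838. In the lists by role they went from 14 lower and 6 higher to 68 and 16. With a fold change over 2, all genes called higher fell to 774, and the lists held 7 lower and 1 higher. Leaving out each sample in turn gave 1691 to 1924 genes lower and 1660 to 1953 higher over all genes, and 12 to 15 lower and 5 to 6 higher in the lists. With library size alone the split over all genes was 2088 lower and 1528 higher, and with upper-quartile factors 1673 and 2188.

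Same-numbered WT and KO samples did not deviate together (correlations of -0.200, -0.134 and 0.0472), and 1 of 6 samples correlated best with its own number, so no pairing was assumed. With the replicate block, 5 of the 10 genes were called lower, *Fgf21* among them, and over all genes 1777 lower and 1744 higher. Depth limits *Fgf21* and *Gdf15*, which had 31 counts or fewer in every sample.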

Other observations

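Of the 10 genes for mitochondrial stress proteases and chaperones, 0 were called by edgeR, DESeq2 or limma-voom, and 3 were lower and 3 higher both on edgeR's adjusted p alone and at an unadjusted p under 0.05. Of all genes tested, 8.39% were called lower and 8.31% higher, and 23.1% and 21.9% were so on the adjusted p alone. The most abundant were *Hspa9*, the matrix chaperone mortalin, with 357 ± 25.4 CPM in WT and 382 ± 27.7 CPM in KO (log2 fold change 0.094, edgeR adjusted p = 0.301), and *Hspd1*, the chaperonin HSP60, with 258 ± 12.9 and 222 ± 11.9 CPM (-0.22, edgeR adjusted p = 0.0101, SD and n = 3 for each).

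Of 6 tested receptor genes for FGF21 and GDF15, 1 was called higher and 1 lower, beside 8.31% and 8.39% of all genes tested. *Klb*, the coreceptor that FGF21 needs, stood at 0.540 ± 0.141 CPM in WT and 4.02 times that level in KO (2.01 on the log2 scale, SE 0.18, edgeR adjusted p = 1.58e-05). *Klb* thus rose while the ligand gene *Fgf21* fell. The summed adipocyte markers were 3.05 times as high in KO as in WT, and within WT both this sum and *Klb* were lowest in replicate 2. Their part in the rise of *Klb* was not tested. *Fgfr3* fell from 29.1 ± 3.89 to 18.6 ± 0.565 CPM (-0.65), and lost its call without WT replicate 2 (-0.54) and with upper-quartile factors (-0.58). *Gfral*, the receptor of GDF15, did not pass the filter on low counts. A further identifier annotated as *Ddit3* (ENSMUSG00000116429.1) had 0 counts in all 6 samples.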
